A study of Mus musculus with 21 samples.

Results

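The 42 genes described here code for proteins of the lysosome and for the transcription factors that control many of their genes. They comprise the 11 membrane proteins Lamp1, Lamp2, Laptm5, Laptm4a, Cd68, Cd164, Scarb2, Mcoln1, Cln3, Ctns and Abca2, and 7 proton pump genes, Atp6ap1, Atp6ap2, Atp6v0c, Atp6v0d1, Atp6v0e, Atp6v1a and Atp6v1b2. Another 21 code for luminal hydrolases and the proteins that assist them, Gla, Glb1, Gaa, Gusb, Hexa, Asah1, Psap, Gm2a, Grn, Tpp1, Ppt1, Neu1, Man2b1, Manba, Sgsh, Ids, Idua, Arsb, Galns, Galc and Smpd1, and 3 for the MiT factors Tfeb, Tfe3 and Mitf. The genes were matched by name, and all 42 were found among the 18079 genes kept of the genotype table and the 13297 genes of the injection table. RNA was measured in microglia, the resident macrophages of the brain, isolated from mouse brain. The genotype table holds 4 libraries of uninjected females of B6.129P2-Apoetm1Unc/J, called the ApoE knockout (ApoE KO), in which the gene of the lipid carrier apolipoprotein E was disrupted by targeting in the germline. Against them stand 7 libraries of uninjected C57BL/6 mice labelled as wild-type (WT) females. The injection table holds 5 libraries of males of the knockout strain that received recombinant APOE (rAPOE) reconstituted in phosphate-buffered saline (PBS), and 5 of males of that strain that received PBS, so that both of its groups lack Apoe. Mice were aged 12 to 18 weeks, injections went into the left hemisphere, and both hemispheres were collected 16 h later. Neither the isoform and dose of rAPOE nor the hemisphere behind each library is stated in the labels. Since they also do not state that each library is a separate mouse, p-values here reflect only the spread between these samples, which may be technical.

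Lysosomes are acidic organelles in which cells break down lipids, proteins, glycans and taken-up debris, and microglia, as phagocytes, hold many of them. A V-type ATPase, built of a membrane V0 sector and a cytosolic V1 sector, pumps protons into the lumen, where hydrolases work at low pH, and heavily glycosylated membrane proteins line the limiting membrane and carry the products of digestion out. The MiT factors move to the nucleus when the kinase mTORC1 is inactive and bind E-box elements with the letters CACGTG in the promoters of lysosomal genes. Inherited loss of many of the enzymes causes storage diseases in humans.

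Values are normalised counts of 3′ tags, so a level is compared between libraries of 1 table and not between genes. ApoE KO libraries held 4247865 to 4969287 reads over 8117 to 10479 detected genes, and WT libraries 2016972 to 3054976 reads over 13592 to 15248 genes. After rAPOE, libraries had 857059 to 1119059 reads and 7691 to 11342 detected genes, and after PBS 704225 to 1347501 reads and 7601 to 11232 detected genes. Apoe itself, the disrupted gene, was at 10.2, 0, 0 and 23.1 in the ApoE KO libraries and at 13196 to 17164 (median 14042) in the WT libraries other than 8. WT library 8 stood apart from its group, with Apoe at 1011, Xist at 3291 against 1127 to 1279 in the other WT libraries, and mitochondrial ribosomal RNA at 4.67% of the values against 1.36% to 1.59%. Its values also summed to 3641490, against 2351430 to 2468970 in the other WT libraries, so the genotype counts, the class shares and the differences of the genes that passed are also given without it. The ApoE KO libraries and WT library 8 held 0 Y-linked reads, against 11 to 36 in the other WT libraries, which hold Xist as well and are labelled female, and 6 of the 42 genes (Lamp2, Gla, Ids, Atp6ap1, Atp6ap2 and Tfe3) are X-linked. PBS library 5 and rAPOE library 5, labelled male, held 0 Y-linked reads and Xist at 979 and 718. Libraries 4 and 5 of both injection groups also stood apart, with 11026 to 11342 detected genes in rAPOE and 10025 to 11232 in PBS libraries, against 7691 to 8727 in rAPOE and 7601 to 8837 in PBS libraries 1 to 3. Their reads differed by a chi-square per gene of 9.66 between rAPOE libraries 4 and 5 and 12.7 between PBS libraries 4 and 5, against 21.9 to 30.3 and 14.9 to 35 for the other pairs of these groups. The labels name no batch, and the injection results are also given for libraries 1 to 3 alone and with a term for libraries 4 and 5, fits added after seeing the data. Microglial markers were abundant in both tables, and each of the 10 listed was above 0 in every library.

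Promoter windows from RefSeq (GRCm38.p6), reaching from 250 bases before to 50 bases after the start site, were found for 39 of the 42 genes, those without being Asah1, Atp6v1b2 and Galns. Since 7 genes have several start sites these are 49 windows, and a gene is counted once if any of its windows holds the letters. The E-box CACGTG, which reads the same on both strands, was found for 11 of these 39 genes (28.2%), against 2187 of all 27025 genes with a window (8.09%). It was found for 4 of 11 membrane protein genes, 4 of 19 hydrolase genes, 3 of 6 proton pump genes and 0 of 3 MiT factor genes. Its palindromic extension TCACGTGA, the centre of the element called CLEAR and by construction a subset of CACGTG, was found for 7 of the 39 genes (17.9%), against 1.12% of all genes. The letters CACATG or CATGTG, 1 sequence on either strand and an E-box variant bound by Mitf, were found for 8 of the 39 genes (20.5%), against 15.9% of all genes. Shown here are the windows of Gla, Cd164, Atp6v1a and Glb1, the genes with an E-box whose levels differed with the smallest adjusted p in the comparisons below, each 5′ to 3′ on the gene's own strand with CACGTG in capitals.
Gla (chrX:134600956-134601255, minus strand): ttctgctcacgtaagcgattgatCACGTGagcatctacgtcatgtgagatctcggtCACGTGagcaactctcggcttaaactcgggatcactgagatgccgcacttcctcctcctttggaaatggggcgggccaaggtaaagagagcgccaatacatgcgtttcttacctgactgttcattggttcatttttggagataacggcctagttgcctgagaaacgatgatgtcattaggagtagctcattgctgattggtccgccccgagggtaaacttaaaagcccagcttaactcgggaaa
Cd164 (chr10:41519250-41519549, plus strand): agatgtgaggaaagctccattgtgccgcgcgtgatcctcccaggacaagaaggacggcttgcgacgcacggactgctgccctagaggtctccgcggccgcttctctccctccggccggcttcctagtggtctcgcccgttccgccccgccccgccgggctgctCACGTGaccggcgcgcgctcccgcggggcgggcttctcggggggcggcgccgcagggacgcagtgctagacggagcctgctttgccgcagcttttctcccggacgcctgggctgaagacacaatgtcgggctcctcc
Atp6v1a (chr16:44139210-44139509, minus strand): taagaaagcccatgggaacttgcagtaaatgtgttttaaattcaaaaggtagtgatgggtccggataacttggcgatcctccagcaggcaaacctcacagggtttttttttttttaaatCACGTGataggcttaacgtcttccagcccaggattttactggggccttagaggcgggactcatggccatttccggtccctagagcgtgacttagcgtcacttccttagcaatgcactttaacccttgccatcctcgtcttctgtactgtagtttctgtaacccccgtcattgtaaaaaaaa
Glb1 (chr9:114400828-114401127, plus strand): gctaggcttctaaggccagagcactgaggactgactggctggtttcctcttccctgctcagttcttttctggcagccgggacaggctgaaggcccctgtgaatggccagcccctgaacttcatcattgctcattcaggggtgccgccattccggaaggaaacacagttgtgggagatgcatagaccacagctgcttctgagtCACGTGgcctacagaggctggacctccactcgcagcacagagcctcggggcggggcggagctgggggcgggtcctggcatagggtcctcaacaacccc
The E-boxes lie −227 and −194 bases from the start site in Gla, −87 in Cd164, −131 in Atp6v1a and −48 in Glb1, counted at the first letter of each. Among these, Gla, Cd164 and Atp6v1a hold TCACGTGA and Glb1 does not. Cd164 was higher and the others were lower in ApoE KO than in WT libraries. A match of letters is a description of the window and was not tested as a binding site.

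In ApoE KO microglia, 6 of the 42 genes were higher and 6 lower than in WT microglia at a limma adjusted p under 0.05. The higher ones were the membrane proteins Ctns, Cd164, Lamp2 and Scarb2, the ceramidase Asah1 and the factor Tfe3, by 1.42-fold to 2.17-fold in the group means. The lower ones were the transporter Abca2, the hydrolases Gla, Glb1, Galns and Ppt1, and the pump subunit Atp6v1a, by 1.37-fold to 24.5-fold. The 24.5-fold is that of Gla, whose ApoE KO mean of 0.97 is worth under 3 reads per library, so its size is uncertain. Over all 10401 genes tested, 25% passed, 5.14% higher and 19.8% lower. The median log2 difference was −0.20 for the 42 genes and −0.45 for all genes, and 29 of the 42 were below 0, against 68.1% of all genes. That background depends on level, with medians over all genes of −1.21 at a mean of 10 to 50, −0.18 at 50 to 500 and 0.10 at 500 or more, where the genes described here had −1.90 (4 genes), −0.26 (21 genes) and −0.04 (17 genes). Without WT library 8, 6 of the 42 were higher and 13 lower, with a median of −0.32, against 7.64% and 23% of all genes and a median of −0.47. Without it the groups did not overlap for 5 genes in the higher and 11 in the lower direction, against 5.89% and 18.1% of all genes, and with it for 4 and 3, against 3.67% and 10.6%. All 12 genes that passed with every library also passed then, in the same direction. Quantile rescaling moved the median of all genes to −0.09 and the split of all calls to 690 higher and 1358 lower, against 535 and 2061 as deposited. Under it 5 of the 42 were higher and 5 lower, with medians of 0.09 for the membrane proteins, −0.04 for the hydrolases, −0.46 for the proton pump and −0.21 for the MiT factors. In bulk RNA, fewer cells of a type and less RNA per cell cannot be told apart.

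Markers of several cell types differed between the ApoE KO libraries and the WT libraries other than 8. By share of all values, WT library 8 lay within or below the ApoE KO range for the monocyte and macrophage, neuronal, astrocyte, oligodendrocyte and endothelial markers. For the microglial and choroid plexus markers its share lay on the side of the other WT libraries. In summed normalised counts, not divided by the library total, its microglial markers stood at 68801, within the ApoE KO range. That range was 68443 to 80855, against 49999.8 to 53413 in the other WT libraries. The 10 microglial markers took 3.29% to 3.36% of all values in the ApoE KO libraries and 1.89% to 2.23% in the WT libraries, and 6 were higher and 0 lower, or 8 and 0 without WT library 8. The 10 choroid plexus markers were all lower with and without that library, at 0.0201% to 0.0368% in ApoE KO libraries against 0.658% in WT library 8 and 2.41% to 3.54% in the other WT libraries. Of the defining choroid plexus markers, Folr1, Sostdc1 and Cldn2 were at 0 in all ApoE KO libraries, while Ttr and Enpp2 were not at 0 in any. Of 12 monocyte and macrophage markers 0 were higher and 7 lower (0.0312% to 0.0442% in ApoE KO libraries, against 0.0117% in WT library 8 and 0.247% to 0.318% in the other WT libraries), and S100a4 and Plac8 were at 0 in all ApoE KO libraries. The 10 neutrophil markers summed to 0.134%, 0.0712%, 0.202% and 0.284% in the ApoE KO libraries, against 0.00501% in WT library 8 and 0.0838% to 0.116% in the other WT libraries. Of the 7 neutrophil markers tested 0 were higher and 1 lower with and without WT library 8, with a median log2 difference of 0.78 and of 0.24 without it. Of 10 neuronal markers 8 were lower, of 8 astrocyte markers tested 7, of 5 oligodendrocyte markers tested 2 and of 8 endothelial markers tested 3, and without WT library 8 these counts were 9, 7, 4 and 5. Neuronal markers took 0% to 0.00294% in ApoE KO libraries, 0.00129% in WT library 8 and 0.0302% to 0.0393% in the other WT libraries. For the astrocyte markers these shares were 0.0262% to 0.047%, 0.038% and 0.105% to 0.111%. The endothelial markers had a median log2 difference of −2.28 and summed to 0.00745% to 0.0141% in the ApoE KO libraries, against 0.00704% in WT library 8 and 0.0169% to 0.0208% in the other WT libraries. The part of these cell types in the levels of the lysosomal genes was not tested.

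**Figure D1:**
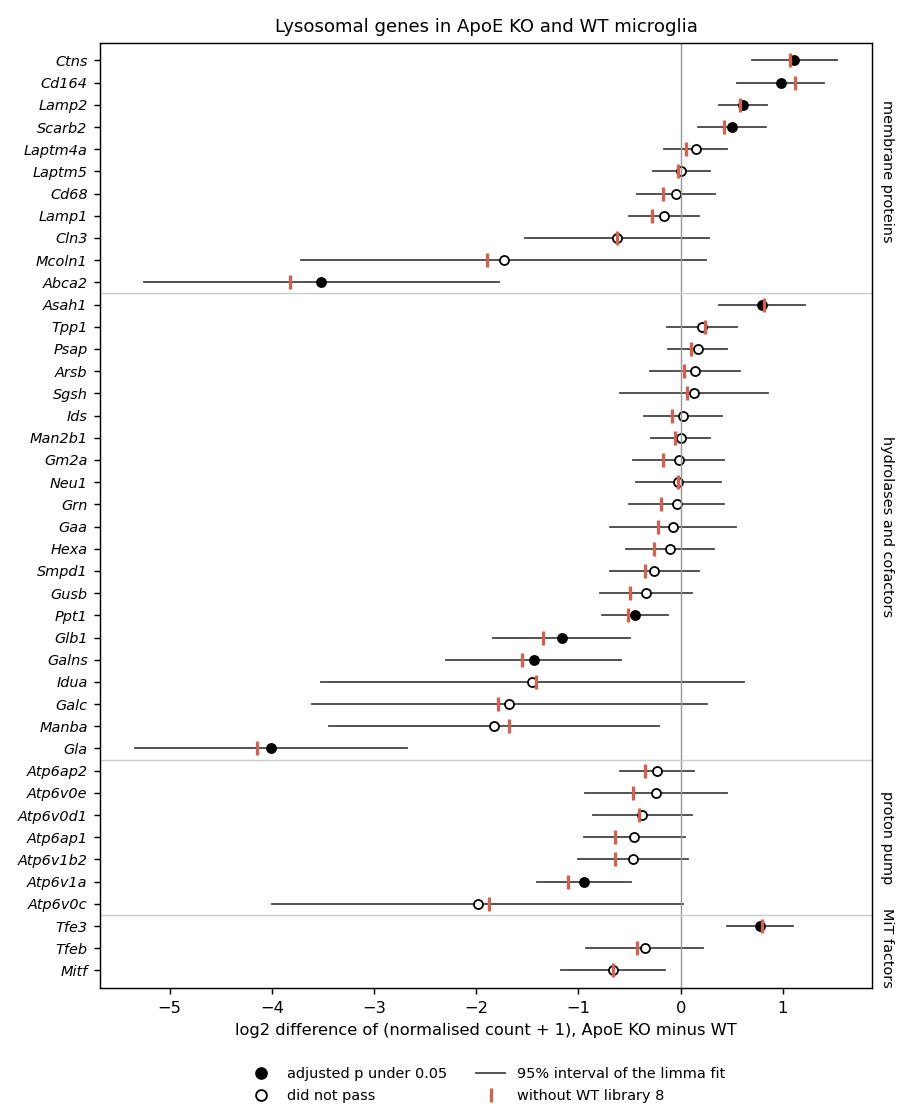
Log2 difference of (normalised count + 1) between ApoE KO and WT libraries for each of the 42 genes, by class, with the 95% interval of the limma fit, filled points at an adjusted p under 0.05 and red ticks for the fit without WT library 8. Filled points lie on both sides of 0, with 6 above and 6 below, and the 7 proton pump genes all lie below 0.

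Among the 11 membrane proteins 4 were higher and 1 was lower in ApoE KO libraries, with a median log2 difference of 0.01. Ctns (cystinosin, chr11:73183596-73199042, minus strand) exports cystine from the lysosome. It was at 210.0, 258, 214 and 287 normalised counts in the ApoE KO libraries, against 94.9 to 129 (median 116) in the WT libraries other than 8 and 90.3 in WT library 8. Every ApoE KO library was above every WT library. The group means differed 2.17-fold, a log2 difference of 1.11 (SE 0.19, limma adjusted p = 7.37e-04) and of 1.07 without WT library 8.

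Cd164 (endolyn, chr10:41519414-41531048, plus strand) is a sialomucin that cycles between the cell surface and lysosomes. Its normalised counts were 1328, 1417, 1619.5 and 1759 in the ApoE KO libraries, 623 to 820.4 (median 675) in the WT libraries other than 8 and 1385 in WT library 8. The ApoE KO libraries lay above each WT library except library 8, which lay within their range. The log2 difference was 0.98 (SE 0.20, limma adjusted p = 0.00249), and 1.12 without that library (adjusted p = 6.21e-06). Lamp2 (chrX:38401357-38456454, minus strand) is a main glycoprotein of the lysosomal membrane and the receptor of chaperone-mediated autophagy. It measured 2824, 2728, 2428 and 2847 in the ApoE KO libraries, against 1709 to 2007 (median 1773) in the WT libraries other than 8 and 1583 in library 8. The groups did not overlap, and the log2 difference was 0.61 (SE 0.11, limma adjusted p = 9.18e-04), or 0.58 without that library.

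Scarb2 (LIMP-2, chr5:92441314-92506833, minus strand) is the receptor that brings glucocerebrosidase to the lysosome. Its normalised counts were 1908, 1816, 1292 and 1579 in the ApoE KO libraries, against 1129 to 1371 (median 1202) in the WT libraries other than 8 and 811 in library 8. ApoE KO library 3 lay within the WT range and the others above it. The log2 difference was 0.51 (SE 0.16, limma adjusted p = 0.0286), and 0.42 without WT library 8 (adjusted p = 0.0103). It no longer passed without ApoE KO library 1 (adjusted p = 0.085), ApoE KO library 2 (0.0751), WT library 6 (0.0506) or WT library 7 (0.0523), nor under quantile rescaling (0.0743). Over the libraries numbered 1 to 4 it did not pass either, with the replicate number as a block (0.0945) or without it (0.0645). Abca2 (chr2:25428703-25448540, plus strand), a lipid transporter of late endosomes and lysosomes that is abundant in oligodendrocytes, was lower. It was at 19.9, 18.7, 0 and 30.1 in the ApoE KO libraries, against 96.2 to 209 (median 157) in the WT libraries other than 8 and 32.5 in library 8. Every ApoE KO library was below every WT library, and WT library 8 was close to the highest of them. The log2 difference was −3.51 (SE 0.81, limma adjusted p = 0.00553), and −3.82 without that library. Oligodendrocyte markers summed to 0.00449% to 0.0129% of the values in ApoE KO libraries, against 0.0055% in WT library 8 and 0.0236% to 0.0273% in the other WT libraries, and their part in the level of Abca2 was not tested.

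The other 6 membrane proteins did not pass. Lamp1, the counterpart of Lamp2, measured 3054, 3477, 3170.3 and 3092 in the ApoE KO libraries, against 3589 to 4047 (median 3994) in the WT libraries other than 8 and 2251 in library 8, so the ApoE KO libraries lay below every WT library but that one. Its log2 difference was −0.17 (limma adjusted p = 0.471) with all libraries and −0.28 (adjusted p = 0.00566) without WT library 8. Lamp1 and Lamp2 thus stood on opposite sides of the WT libraries other than 8. Laptm5, a lysosomal membrane protein of blood cells, Laptm4a, its ubiquitous relative, and Cd68, a macrophage relative of the Lamp proteins, had log2 differences of 0.01, 0.15 and −0.04. Cln3, whose loss causes juvenile Batten disease in humans, was at −0.62 and spread between 24.5 and 205 within the ApoE KO group. Mcoln1, the lysosomal calcium channel TRPML1, was at 1.70, 44.1, 0 and 31 in the ApoE KO libraries and 22.9 to 37.2 (median 27.4) in the WT libraries other than 8. Its ApoE KO libraries lay on both sides of the WT libraries, and the log2 difference of −1.73 (SE 0.92) had a limma adjusted p of 0.191. It was −0.74 without ApoE KO library 3, which is at 0, and −0.43 in edgeR on the reads, while without ApoE KO library 2 it was −2.57 and passed (adjusted p = 0.0485).

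**Figure D2:**
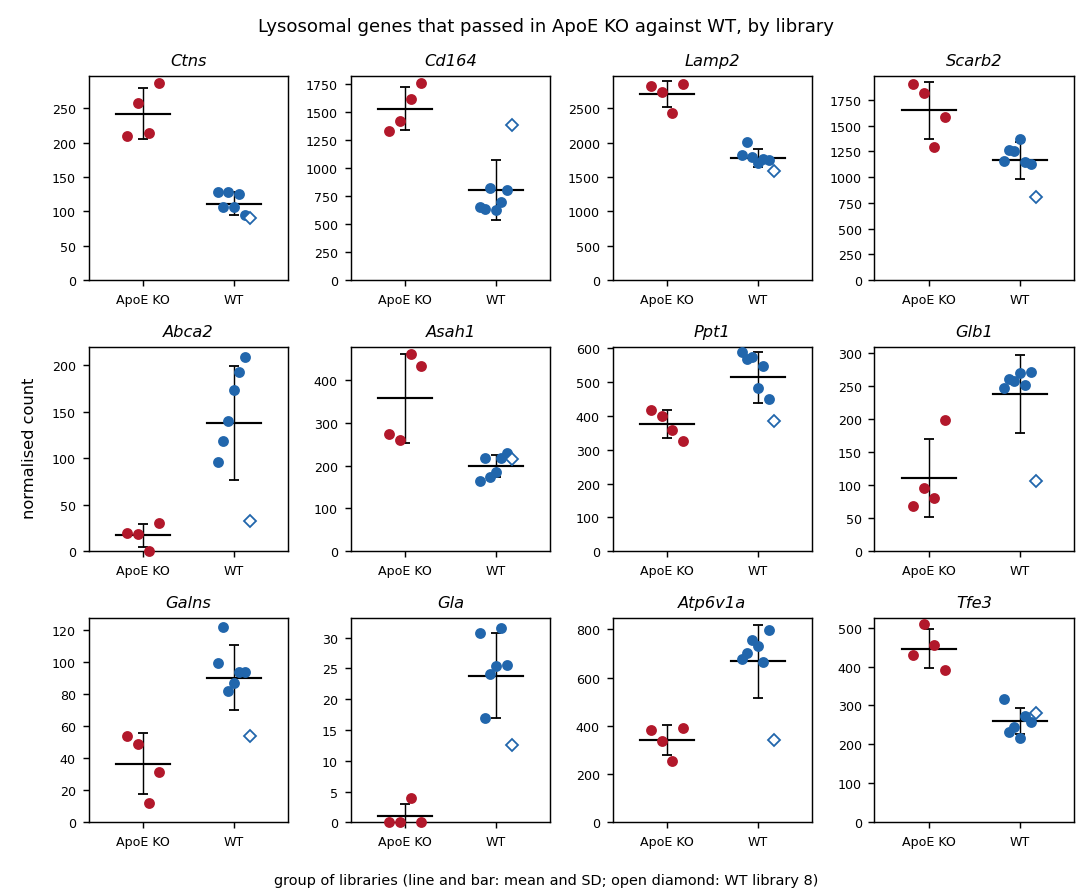
Normalised count of each ApoE KO library (red) and WT library (blue) for the 12 genes that passed, with the group mean and SD as line and bar and WT library 8 as an open diamond. WT library 8 lies among the ApoE KO values for Cd164, Glb1, Ppt1 and Atp6v1a, close above the highest of them for Galns and Abca2, and with the other WT libraries for Asah1, Tfe3 and Ctns.

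Of the 21 hydrolases and their cofactors 1 was higher and 4 were lower in the ApoE KO libraries, and the median log2 difference was −0.08. Asah1 (acid ceramidase, chr8:41340197-41374773, minus strand) splits ceramide into sphingosine and fatty acid. It was at 275, 261, 462 and 434 in the ApoE KO libraries, against 165 to 231 (median 201) in the WT libraries other than 8 and 215 in library 8. The ApoE KO libraries, spread over a wider range, all lay above the WT libraries, by a log2 difference of 0.80 (SE 0.20, limma adjusted p = 0.00855), or 0.81 without WT library 8. Gla (alpha-galactosidase A, chrX:134588149-134601125, minus strand), the enzyme missing in Fabry disease, removes terminal galactose from glycolipids. ApoE KO libraries 1, 2 and 4 had 0 reads, which by counting error alone allows up to 1.70, 1.34 and 1.33 normalised counts. Library 3 had 9 reads, or 3.89 normalised counts. The WT libraries other than 8 held 16.9 to 31.5 (median 25.5) and library 8 held 12.6, all above the ApoE KO libraries. The log2 difference of −4.01 (SE 0.62, limma adjusted p = 2.95e-04) rests on these low counts. It was −4.14 without WT library 8 and had an adjusted p of 0.0207 in edgeR on the reads.

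Glb1 (beta-galactosidase, chr9:114401076-114474898, plus strand), which degrades the ganglioside GM1 and keratan sulphate, was lower. It measured 68.7, 96.2, 80.4 and 198 in the ApoE KO libraries, against 247 to 271 (median 259) in the WT libraries other than 8 and 107 in library 8. The WT libraries other than 8 lay close together above all ApoE KO libraries, and library 8 lay among the ApoE KO values. Its log2 difference was −1.16 (SE 0.31, limma adjusted p = 0.0143), and −1.35 without library 8. Galns (chr8:122578242-122611463, minus strand), a sulphatase that also acts on keratan sulphate, was at 53.9, 49, 12.1 and 31.5 in the ApoE KO libraries, 81.7 to 122 (median 93.8) in the WT libraries other than 8 and 54.2 in library 8. The groups did not overlap, with WT library 8 next to the highest ApoE KO library, and the log2 difference was −1.44 (SE 0.40, limma adjusted p = 0.0168), or −1.55 without WT library 8. It did not pass over the libraries numbered 1 to 4, with the replicate number as a block (adjusted p = 0.0671) or without it (0.052). Ppt1 (palmitoyl-protein thioesterase, chr4:122836242-122859175, plus strand) removes fatty acids from proteins. Its values were 417, 399.9, 358 and 326 in the ApoE KO libraries, against 451 to 588 (median 558) in the WT libraries other than 8 and 386 in library 8, which lay among the ApoE KO values. It passed narrowly, with a log2 difference of −0.45 (SE 0.15, limma adjusted p = 0.0441), or −0.51 without WT library 8 (adjusted p = 0.00387), and passed under 6 of 20 alternatives. It missed when any ApoE KO library but 1, or any WT library but 8, was left out (adjusted p of 0.054 to 0.108), and in edgeR (0.0803).

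The other 16 hydrolases and cofactors did not pass. Hexa, the alpha subunit of beta-hexosaminidase, and Gusb, the beta-glucuronidase, were below 0 with all libraries (log2 differences −0.10 and −0.34, limma adjusted p = 0.731 and 0.256) and passed as lower without WT library 8 (−0.26 and −0.50, adjusted p = 0.0123 and 0.00405). Hexa measured 2104, 1928, 2017 and 2246 in the ApoE KO libraries, 2296 to 2679.5 (median 2489) in the WT libraries other than 8 and 1146 in library 8. Gusb measured 494, 395, 491 and 601 in the ApoE KO libraries, 657 to 744 (median 684) in the WT libraries other than 8 and 327 in library 8. For both genes library 8 was below every ApoE KO library and the other WT libraries were above every one. Psap, the precursor of the saposins that lift sphingolipids to their enzymes, and Grn, the progranulin precursor, were among the most counted of these genes and had log2 differences of 0.17 and −0.04. Gm2a, the GM2 activator, Man2b1, the alpha-mannosidase, Neu1, the sialidase, Ids, the iduronate sulphatase, and Gaa, the acid alpha-glucosidase, lay between −0.08 and 0.02. Tpp1, the tripeptidyl peptidase, Arsb, the arylsulphatase B, Sgsh, the heparan N-sulphatase, and Smpd1, the acid sphingomyelinase, lay between −0.26 and 0.21.

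Manba (beta-mannosidase), Idua (alpha-iduronidase) and Galc (galactosylceramidase) had log2 differences beyond 1 that did not pass. Manba was at 11.9, 0.445, 6.05 and 22.2 in ApoE KO libraries and 10.8 to 53.1 (median 24.9) in the WT libraries other than 8 (−1.82, SE 0.75, limma adjusted p = 0.0945). Idua was at 90.8, 28.5, 0 and 99.7 in ApoE KO libraries and 38.5 to 82.9 (median 68.1) in the WT libraries other than 8 (−1.45, SE 0.97, limma adjusted p = 0.292). Galc was at 54.5, 51.7, 0 and 45.2 in ApoE KO libraries and 40.4 to 90.8 (median 67.1) in the WT libraries other than 8 (−1.68, SE 0.90, limma adjusted p = 0.195). In all of these the groups overlapped, and ApoE KO library 3 was at 0 for Idua and Galc. Without that library the log2 difference was 0.05 for Idua and −0.26 for Galc, and edgeR on the reads with all libraries gave −0.18 and −0.70. For Manba it ranged over −2.37 to −1.04 with a library left out, and it passed without ApoE KO library 4 (adjusted p = 0.037). ApoE KO library 3 was at 0 for 5 of the 42 genes, Mcoln1, Abca2, Idua, Galc and Atp6v0c, while libraries 1, 2 and 4 were at 0 for 1, 1 and 2.

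All 7 proton pump genes lay below 0, with a median log2 difference of −0.45, and 1 passed. All genes had a median of −0.45 as well, but 6 of the 7 pump genes have means over 50, where the medians of all genes were −0.18 and 0.10, and under quantile rescaling the pump was at −0.46 and all genes at −0.09. Atp6v1a (chr16:44085402-44139705, minus strand) codes for the catalytic A subunit of the V1 sector, which splits ATP. It measured 381, 335, 255 and 389.7 in the ApoE KO libraries, against 666 to 798 (median 715) in the WT libraries other than 8 and 341 in library 8. The ApoE KO libraries were all below the WT libraries other than 8, and library 8 lay within the ApoE KO range. The group means differed 1.96-fold, a log2 difference of −0.95 (SE 0.22, limma adjusted p = 0.00535), and −1.10 without WT library 8 (adjusted p = 1.77e-05).

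Without WT library 8, 4 of the 7 pump genes were lower, against 23% of all genes. The added ones were the accessory proteins Atp6ap1 and Atp6ap2, which help to assemble the V0 sector, and Atp6v1b2, the B2 subunit that pairs with the A subunit in V1. Atp6ap1 was at 1257, 1156, 1065 and 1235 in the ApoE KO libraries, 1531 to 2177 (median 1857) in the WT libraries other than 8 and 746 in library 8. Its log2 difference was −0.45 with all libraries (limma adjusted p = 0.172) and −0.64 without library 8 (adjusted p = 2.08e-04). Atp6ap2 was at 1189, 1114, 1346 and 1228 in the ApoE KO libraries, 1410.2 to 1682 (median 1572) in the WT libraries other than 8 and 861 in library 8 (−0.23 with all libraries, −0.35 without library 8, adjusted p = 0.00405). For both accessory proteins the ApoE KO libraries lay between WT library 8 and the rest of the WT libraries. Atp6v1b2 overlapped, since ApoE KO library 1 reached 686 against 645 to 764 (median 686) in the WT libraries other than 8 (−0.46 with all libraries, −0.64 without library 8, adjusted p = 0.00856). The V0 subunits Atp6v0d1 and Atp6v0e had log2 differences of −0.37 and −0.24 and did not pass in either fit. Atp6v0c, the proteolipid that forms the rotating ring, was at 22.7, 18.7, 0 and 0 in the ApoE KO libraries and 6.16 to 31.6 (median 19) in the WT libraries other than 8. The mouse genome holds pseudogenes of Atp6v0c, and how shared tags were counted is not stated. These groups overlapped, at a log2 difference of −1.99 (SE 0.94, limma adjusted p = 0.141), which passed without ApoE KO library 1 (−2.77, adjusted p = 0.0441) and was −0.88 in edgeR.

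Of the MiT factors, Tfe3 (chrX:7762560-7775202, plus strand) was higher in ApoE KO libraries and the others were not. Tfe3 measured 429, 509, 455 and 391 in the ApoE KO libraries, against 215 to 318 (median 252) in the WT libraries other than 8 and 279.8 in library 8. All ApoE KO libraries were above all WT libraries, library 8 included. The group means differed 1.71-fold, a log2 difference of 0.78 (SE 0.15, limma adjusted p = 0.00176) and of 0.80 without WT library 8. Mitf, the founding member of the family, was at 97.6, 76.6, 76.9 and 160.5 in the ApoE KO libraries, 123 to 200.1 (median 153) in the WT libraries other than 8 and 155 in library 8. Library 4 of the ApoE KO group lay within the WT range and the others below it, and the log2 difference of −0.66 (SE 0.24) missed the threshold with all libraries (limma adjusted p = 0.0558) and passed without WT library 8 (0.0482) or ApoE KO library 4 (0.00928). Tfeb, the member best known for control of lysosomal genes, overlapped between groups at 61.9, 81.5, 86 and 129 in ApoE KO libraries and 83.3 to 149 (median 125) in the WT libraries other than 8 (log2 difference −0.35, limma adjusted p = 0.358). Of the 12 genes that passed, the X-linked ones were Lamp2 and Tfe3, both higher, and Gla, which was lower, in groups that differ in Xist and Y-linked reads as given above.

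Summed over a class, the 11 membrane protein genes took 1.15% ± 0.0648 of all values in ApoE KO libraries (SD, n = 4), against 0.94% ± 0.188 in WT libraries (SD, n = 7) and 1.01% ± 0.0499 without library 8 (SD, n = 6). The hydrolases and cofactors took 0.837% ± 0.0135 in ApoE KO libraries (SD, n = 4), against 0.758% ± 0.191 in WT libraries (SD, n = 7) and 0.83% ± 0.0245 without library 8 (SD, n = 6). The proton pump genes took 0.164% ± 0.00623 in ApoE KO libraries (SD, n = 4), against 0.202% ± 0.0593 in WT libraries (SD, n = 7) and 0.224% ± 0.0144 without library 8 (SD, n = 6). For the pump the ApoE KO libraries, at 0.156% to 0.17%, lay between WT library 8 at 0.0707% and the other WT libraries at 0.21% to 0.251%. The MiT factors took 0.0289% ± 0.00305 in ApoE KO libraries (SD, n = 4) against 0.021% ± 0.00365 in WT libraries (SD, n = 7) and 0.0221% ± 0.00227 without library 8 (SD, n = 6). WT library 8 held the lowest share of its group in every class, and was the lowest WT library for 31 of the 42 genes. These shares are divided by the total of each library, are weighted towards the most counted genes and were not tested. In summed normalised counts, on which the fits rest, the hydrolases and cofactors were at 17551 to 19774 in ApoE KO libraries. The WT libraries other than 8 held 19112 to 21011, and library 8 held 11919. For the membrane proteins these sums were 24118.5 to 26952 in ApoE KO libraries, 22888 to 25444 in WT libraries other than 8 and 19136 in library 8.

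**Figure D3:**
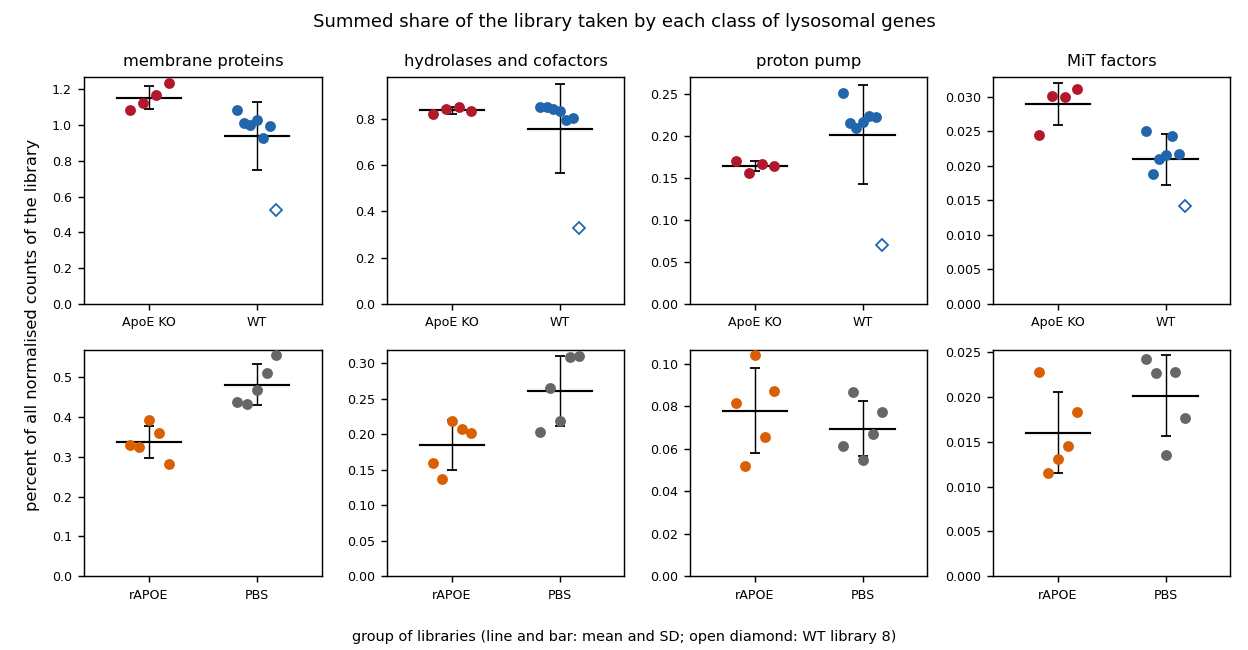
Share of all normalised counts of a library taken by each class of genes, for ApoE KO against WT libraries (top) and rAPOE against PBS libraries (bottom), with the mean and SD as line and bar. For the proton pump the ApoE KO libraries sit at 0.156% to 0.17%, below every WT library except library 8 (open diamond, 0.0707%), and for the membrane proteins the rAPOE libraries sit at 0.283% to 0.391%, below the PBS libraries at 0.433% to 0.555%.

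Other genes of the lysosome moved in both directions as well. Of 28 further hydrolases tested, 5 were higher and 1 was lower in ApoE KO libraries, and without WT library 8 these counts were 5 and 7. The phospholipase Pla2g15 averaged 1331 ± 248 (SD, n = 4) in ApoE KO and 809 ± 78.9 (SD, n = 7) in WT libraries (log2 difference 0.71, SE 0.14, limma adjusted p = 0.0018). The acid phosphatase Acp2 averaged 938 ± 98.4 (SD, n = 4) in ApoE KO and 608 ± 59.2 (SD, n = 7) in WT libraries (0.62), and the acid lipase Lipa 293 ± 59 (SD, n = 4) in ApoE KO and 175 ± 25.8 (SD, n = 7) in WT libraries (0.73). In each of these the groups did not overlap. Of 25 further membrane proteins, 3 were higher and 4 lower (3 and 5 without WT library 8), among them the transporters Slc15a4 (0.86, limma adjusted p = 7.37e-04) and Slc36a1 (1.02) and the Laptm4a relative Laptm4b (−0.97). Of 13 further pump genes, 0 were higher and 2 lower, Tmem9 (−2.99) and Atp6v1g2 (−3.23), and without WT library 8 these counts were 1 and 6.

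Of 20 genes that control the MiT factors, such as the Rag GTPases and mTOR, 1 was higher and 2 were lower (2 and 3 without WT library 8). Rragc averaged 325 ± 30.4 (SD, n = 4) in ApoE KO and 204 ± 24.6 (SD, n = 7) in WT libraries (0.68, SE 0.16, limma adjusted p = 0.00536), Mtor averaged 11.7 ± 14.6 (SD, n = 4) in ApoE KO and 51.7 ± 14.8 (SD, n = 7) in WT libraries (−3.13), and Rragd was at 0 in every ApoE KO library, against 45.1 ± 16.2 (SD, n = 7) in WT libraries. At a floor of 3 reads per library Rragd would be at least 26.5-fold lower. That floor covers counting error only, and pairs of ApoE KO libraries differed by more than that (chi-square per gene 35.1 to 69.7), so the size is uncertain. Of 13 genes that deliver enzymes to the lysosome, 1 was higher and 1 lower (2 and 1 without WT library 8). Igf2r, the large mannose 6-phosphate receptor, was also at 0 in every ApoE KO library, against 51.8 ± 16.5 (SD, n = 7) in WT libraries. At the same floor it would be at least 30.4-fold lower, with the same limit. The adaptor Gga3 was higher (1.01, limma adjusted p = 0.0335). Genes at this level are those whose median over all genes was −1.21. The median log2 differences of the hydrolase, membrane, pump, control and delivery lists were 0.02, 0.03, −0.46, −0.10 and −0.01, against −0.45 for all genes, and quantile rescaling, which moved the median of all genes to −0.09, left them at 0.20, 0.22, −0.40, −0.04 and 0.03.

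After rAPOE, 1 of the 36 genes tested differed from PBS, the membrane protein Cd164, which was lower, and 0 were higher. Over all 7066 genes tested 0.481% passed, 0.368% higher and 0.113% lower. The other 6 genes, Mcoln1, Abca2, Gla, Manba, Sgsh and Galns, had a mean under 10 normalised counts and no library above 32.9, and were not tested. Of the 36 genes, 28 were below 0, against 50.6% of all genes, with a median log2 difference of −0.50 against −0.01 for all genes. By class the median was −0.68 for the membrane proteins (9 of 9 below 0), −0.76 for the hydrolases (14 of 17 below 0), 0.00 for the proton pump (3 of 7 below 0) and −0.13 for the MiT factors (2 of 3 below 0). At an unadjusted p under 0.05 stood 13 of the 36, against 11.2% of all genes, and 8 against 8.81% without the libraries numbered 5, which lack Y-linked reads. With libraries 1 to 3 alone 8 did, against 7.61% of all genes, 24 of the 36 were below 0 with a median of −0.46, and none passed. With a term for libraries 4 and 5, 13 did, against 12% of all genes, and Cd164 alone passed. The 10 microglial markers took 1.31% to 2.38% of the values in rAPOE libraries and 2.18% to 2.89% in PBS libraries, with a median log2 difference of −0.71 and 3 of 10 lower (P2ry12, Siglech and Gpr34), and none was at 0 in any library. Their part in the levels of the lysosomal genes was not tested.

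**Figure D4:**
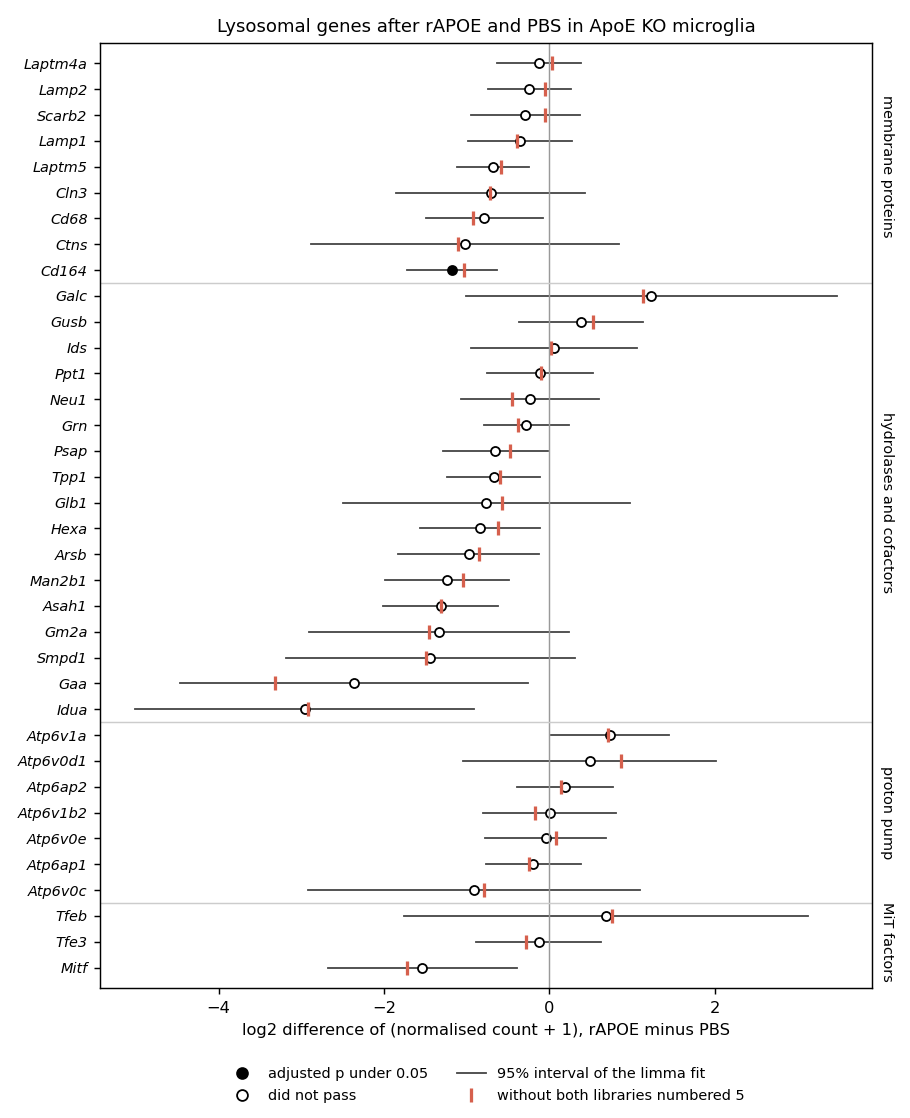
Log2 difference of (normalised count + 1) between rAPOE and PBS libraries for the 36 genes tested, by class, with the 95% interval of the limma fit, the filled point at an adjusted p under 0.05 and red ticks for the fit without both libraries numbered 5. The 9 membrane proteins all lie below 0 and 14 of 17 hydrolases do, while the proton pump genes lie on both sides.

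Cd164, the endolyn whose E-box is shown above, was at 363, 568, 922, 502 and 340.4 normalised counts in the rAPOE libraries, against 1412, 838, 1328, 1063 and 1144 in the PBS libraries. The groups overlapped only in rAPOE library 3, which exceeded PBS library 2. The means were 539 ± 234 (SD, n = 5) after rAPOE and 1157 ± 226 (SD, n = 5) after PBS, 2.15-fold lower, with a log2 difference of −1.17 (SE 0.26, limma adjusted p = 0.044). That p is close to the threshold, and the call was lost in edgeR on the reads (adjusted p = 0.124), without both libraries numbered 5 (0.255) with libraries 1 to 3 alone (−1.01, 0.422) and with a pseudocount of 0.5 (0.0548). With a term for libraries 4 and 5 the adjusted p was 0.0161. It was also lost without PBS library 1 (0.14), 3 (0.151), 4 (0.0804) or 5 (0.0952) and without rAPOE library 1 (0.133), 2 (0.0892), 4 (0.0777) or 5 (0.133), while the log2 difference stayed between −1.22 and −1.03 in these fits with 1 library left out. In the genotype table Cd164 was higher in ApoE KO than in WT libraries, with a log2 difference of 0.98. The libraries, tables and sexes of these comparisons differ, and the difference between them was not tested.

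For 4 further genes every rAPOE library was below every PBS library, while none of the 36 had every rAPOE library above every PBS library. Over all genes tested 1.54% did not overlap in the lower direction and 1.59% in the higher one. Laptm5 was at 832, 865, 869, 899 and 555 in rAPOE libraries and 1313, 1296, 1526, 1089 and 1163 in PBS libraries (log2 difference −0.68, SE 0.21, limma adjusted p = 0.201), with rAPOE library 5 lowest. Asah1, the acid ceramidase, was at 56.6, 48.4, 64.2, 56.6 and 60.6 in rAPOE libraries and 93.5, 150.4, 189, 146 and 155 in PBS libraries. The rAPOE libraries lay close together and the PBS libraries spread more widely, with a log2 difference of −1.31 (SE 0.34, limma adjusted p = 0.0989). It passed where only genes with a mean of at least 50 were tested (adjusted p = 0.0373). Tpp1 was at 159, 199.8, 124, 182 and 106 in rAPOE libraries and 237, 282, 226, 252 and 212 in PBS libraries (−0.67, SE 0.27, limma adjusted p = 0.357). Idua, among the least counted, was at 0, 1.01, 13, 8.54 and 2.33 in rAPOE libraries and 31.4, 56.9, 25.6, 16.5 and 28.3 in PBS libraries (−2.96, SE 0.98, limma adjusted p = 0.233). None of these passed over all genes tested.

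**Figure D5:**
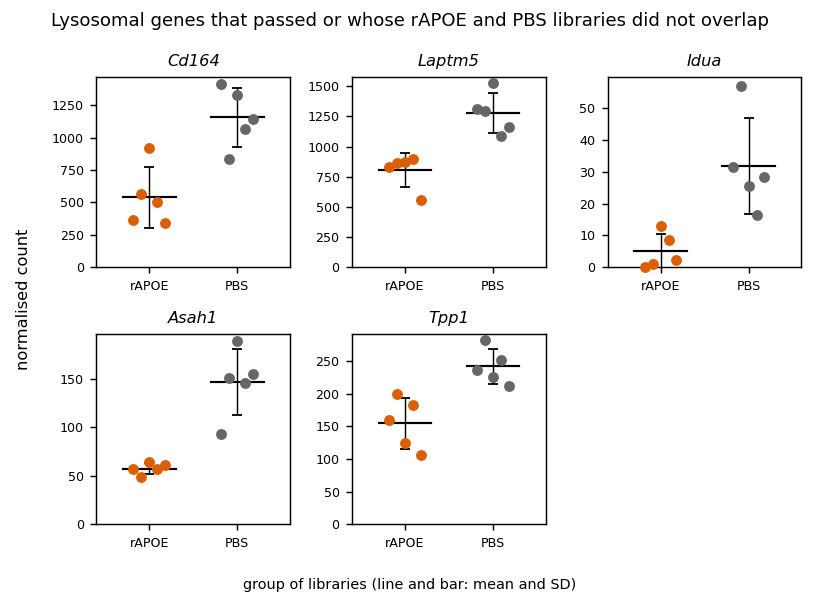
Normalised count of each rAPOE library (orange) and PBS library (grey) for Cd164, which passed, and for Laptm5, Idua, Asah1 and Tpp1, whose groups did not overlap, with the group mean and SD as line and bar. For Asah1 the rAPOE libraries sit between 48.4 and 64.2, below the PBS libraries at 93.5 to 189.

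Among the other membrane proteins, Ctns was at 3.88 to 21.2 (median 7.77) in rAPOE libraries and 7.90 to 62.9 (median 12.9) in PBS libraries, with overlapping groups and a log2 difference of −1.02 (SE 0.90, limma adjusted p = 0.718). Lamp1, Lamp2, Laptm4a, Cd68, Scarb2 and Cln3 had log2 differences of −0.79 to −0.12 and adjusted p of 0.395 to 0.89. Of the hydrolases that did not pass, Man2b1, which trims mannose from glycoproteins, was at 53, 154, 219, 203 and 104 in rAPOE libraries and 306, 181, 296, 405 and 432 in PBS libraries. PBS library 2 lay within the rAPOE range and the others above it (−1.24, SE 0.36, limma adjusted p = 0.16). Gaa was at 0, 36.3, 1, 35.7 and 28 in rAPOE libraries and 73.6, 107, 70.4, 45.4 and 9.65 in PBS libraries (−2.36, SE 1.01, limma adjusted p = 0.391; −1.57 in edgeR on the reads), with PBS library 5 among the rAPOE values. Gm2a (−1.33, SE 0.76, adjusted p = 0.528) and Smpd1 (−1.44, SE 0.84, adjusted p = 0.547) were each close to 1 normalised count in rAPOE library 3 alone, and edgeR on the reads gave log2 differences of −0.73 and −0.86. Gm2a ranged over 1 to 69.1 (median 54.4) in rAPOE libraries and 40.5 to 99.7 (median 73.1) in PBS libraries, and Smpd1 over 1 to 47.3 (median 10.1) in rAPOE libraries and 21.2 to 44.8 (median 29) in PBS libraries. Galc lay on the other side of 0 (1.23, SE 1.08, limma adjusted p = 0.715), at 6.22 to 29.5 (median 10.9) in rAPOE libraries and 0 to 13.2 (median 8.85) in PBS libraries. The remaining hydrolases had log2 differences of −0.97 to 0.38.

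None of the 7 proton pump genes passed. Atp6v1a, the catalytic subunit that was lower in ApoE KO than in WT libraries, was at 176, 114, 219.8, 77.6 and 123 after rAPOE and 76.9, 89.8, 73.6, 90.9 and 70.8 after PBS. The rAPOE libraries except library 4 lay above every PBS library, and the log2 difference of 0.73 (SE 0.34) had a limma adjusted p of 0.431. The other 6 pump genes lay between −0.91 and 0.49, with adjusted p of 0.775 to 0.998. Of the MiT factors, Mitf was at 11.8, 23.2, 16.1, 24.8 and 38.1 in rAPOE libraries and 142, 49.3, 32, 65.9 and 67.6 in PBS libraries. PBS library 3 lay within the rAPOE range and PBS library 1 was highest, and the log2 difference of −1.54 (SE 0.55) had a limma adjusted p of 0.282. Tfe3, higher in ApoE KO than in WT libraries, was at 74.5 to 218 (median 84.3) in rAPOE libraries and 75.3 to 177 (median 111) in PBS libraries (−0.13, SE 0.37, adjusted p = 0.931), and Tfeb was at 0 to 30.3 (median 21.7) in rAPOE libraries and 0 to 16.5 (median 8.56) in PBS libraries (0.69, SE 1.18, adjusted p = 0.873). For Tfeb the 95% interval of the log2 difference ran over −1.76 to 3.13, which includes differences of several fold in either direction.

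Summed by class, the membrane protein genes took 0.337% ± 0.0406 of all values in rAPOE libraries (SD, n = 5) and 0.481% ± 0.0516 in PBS libraries (SD, n = 5), and the groups did not overlap (0.283% to 0.391%, against 0.433% to 0.555%). The hydrolases took 0.185% ± 0.0353 in rAPOE libraries (SD, n = 5) and 0.262% ± 0.0493 in PBS libraries (SD, n = 5), and these shares overlapped. Their summed normalised counts, not divided by the library total, did not overlap (1541 to 2119 in rAPOE libraries, against 2274 to 2650 in PBS libraries). The proton pump genes took 0.078% ± 0.02 in rAPOE libraries (SD, n = 5) and 0.0695% ± 0.0128 in PBS libraries (SD, n = 5), and the MiT factors 0.016% ± 0.00453 in rAPOE libraries (SD, n = 5) and 0.0202% ± 0.00448 in PBS libraries (SD, n = 5), both with overlap. Of 24 further hydrolases, 20 further membrane proteins, 11 further pump genes, 16 control genes and 12 delivery genes tested, 0 passed in either direction. Their median log2 differences were −0.66, −0.27, 0.18, −0.07 and 0.07, against −0.01 for all genes.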

How the data were processed

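RNA of isolated microglia was made into QuantSeq 3′ FWD libraries and read on an Illumina MiniSeq, per the labels' protocols. The submitters' processing notes name GRCm38.p3, DESeq2, HTSeq, R 3.2.3 and Picard 1.8.4, without roles. The aligner, annotation and strand setting are not stated there or in the labels. The deposited values are a signal per gene, the normalised count, in which the authors divided each library's reads by a library-wide factor. In every library 100% of the values were within 0.01 of whole multiples of 1 step, which gives the reads. For rAPOE libraries 2 and 3 that step, 1.009 and 1.004 normalised counts, is so near 1 that low values are close to whole numbers with or without it, and their reads are less certain. Floors of 3 reads cover counting error only, and intervals are those of limma, from the spread between libraries.

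Of 18221 genotype entries, 22 with dates as names (0.0966% of the values) and 120 at 0 throughout were left out. Each table was normalised apart and fitted alone with limma 3.58.1 (R 4.3.3, eBayes with trend) on log2(normalised count + 1), a scale that understates the change of a gene low in every library and can overstate it where a library is at 0, keeping genes whose mean reached 10. Adjusted p are Benjamini-Hochberg over all genes tested, two-sided, and a gene passed under 0.05. edgeR 4.0.16 (quasi-likelihood) on the reads was an alternative, beside other pseudocounts, filters and scalings, each library left out and a replicate block. The design had named this test for normalised values. On simulated counts shaped like the genotype table (10057 genes) 9.47% of 2-fold and 46.8% of 4-fold changes were recovered, and shaped like the injection table (6345 genes) 0% and 23.3%. The changed genes numbered 95 and 94 in the simulated genotype table and 94 and 90 in the simulated injection table. In the genotype data 25% of genes passed, and with so few changed genes the adjusted threshold is stricter. The simulated shares are therefore not the sensitivity of the genotype fit.

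No 2 libraries agreed within sampling noise (smallest chi-square per gene 4.02). In the genotype table, pairs of WT libraries other than 8 stood at a chi-square per gene of 4.02 to 7.80. Pairs of ApoE KO libraries stood at 35.1 to 69.7, and WT library 8 against the other WT libraries at 63.1 to 88.2. Whether the WT libraries other than 8 are separate mice is not stated, and genotype p-values without WT library 8 rest on their narrow spread. The genes and lists, and the rules for those named, were chosen with earlier results of these data known. Each of the 42 genes that passed is named with values, and those that did not are named with values where they differed by at least 1 on the log2 scale, or given by range or as neighbours in a class. Of each further list the 3 passing genes with the smallest adjusted p were named. Positions are from GENCODE M21 (GRCm38).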

Additional observations from a re-analysis of the deposited data

Results flagged for a closer look

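Values of 42 genes and 4 class shares in each of 4 groups were screened for a library whose gap to its nearest neighbour is large for the range of its group (Dixon's 95% critical value). Of 184 such groups of values 30 held one, where chance gives about 1 in 20.

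WT library 8 accounted for 14 genes and 3 class shares, and was low in all but one case. It was low, in normalised counts, for the membrane proteins Lamp1 (2251), Laptm4a (1683), Cd68 (755) and Scarb2 (811), and high for Cd164 (1385). It was low for the hydrolases and cofactors Glb1 (107), Gusb (327), Hexa (1146), Gm2a (224) and Grn (3613), and for the pump genes Atp6ap2 (861), Atp6v0e (119), Atp6v1a (341) and Atp6v1b2 (294). Its shares of all values were low for the membrane proteins (0.525%), the hydrolases (0.327%) and the proton pump (0.0707%).

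In ApoE KO libraries, library 3 stood apart for Gla (3.89, with 0 in the others) and Galc (0), and library 1 for the share of the MiT factors (0.0244%). In rAPOE libraries, library 5 stood apart for Laptm5 (555, low) and Gla (12.4, high), library 2 for Mcoln1 (20.2, high), library 1 for Galc (29.5, high) and Tfe3 (218, high), and library 3 for Atp6v0c (25.1, high). In PBS libraries, library 3 stood apart for Cln3 (20.8) and Ppt1 (125), both low, library 4 for Abca2 (12.5, with 0 in the others) and library 2 for Atp6ap2 (228, high). These are single-library values and were not followed further.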

How the results depend on the processing

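None of the results reversed its direction while past the threshold under any alternative. For single genes, 792 of the genotype results under an alternative kept their side of the threshold, 21 newly passed and 23 were lost, and in the injection table these counts were 729, 1 and 12. With a library left out, 5 to 6 of the 42 genes were higher in ApoE KO libraries and 5 to 13 lower, the 13 without WT library 8, and 402 to 791 of all genes were higher and 1602 to 2378 lower. All genes lower numbered 3191 with no filter, 801 at a mean of at least 50, 1358 under quantile rescaling and 1159 in edgeR, against 2061.

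After rAPOE, the 1 gene that was lower, Cd164, became 0 with a pseudocount of 0.5, in edgeR, without both libraries numbered 5 and with libraries 1 to 3 alone, became 2 with Asah1 at a mean of at least 50, and ranged over 0 to 1 with a library left out. All genes higher after rAPOE numbered 47 with a pseudocount of 5, 10 without both libraries numbered 5, 5 with libraries 1 to 3 alone, 44 with a term for libraries 4 and 5 and 13 to 36 with a library left out, against 26. All genes lower numbered 17 with a pseudocount of 5, 16 at a mean of at least 50, 13 under quantile rescaling, 1 in edgeR, 1 without both libraries numbered 5, 1 with libraries 1 to 3 alone, 29 with a term for libraries 4 and 5 and 2 to 38 with a library left out, against 8. The cause of these shifts was not tested, beyond the smaller number of genes or libraries in some.

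Shared replicate numbers did not pair the libraries of the genotype table (correlations of deviations −0.03 to 0.02). In the injection table same-number pairs ranged over −0.00 to 0.19, with pairs 4 and 5 at 0.19 and 0.11. There rAPOE library 4 with PBS library 5 was at 0.10, and rAPOE library 5 with PBS library 4 at 0.14. Libraries 4 and 5 of both groups stood apart from the rest, so pairing by number cannot be told apart from that shared difference. With the number as a block, over the libraries numbered 1 to 4, 5 genes were higher and 9 lower in ApoE KO libraries, against 5 and 11 of the same libraries without the block, a fit added after seeing the data. Scarb2 and Galns were lost in both. In the injection table the block left 0 higher and 1 lower of the 36 genes, and 35 higher and 17 lower of all genes, against 26 and 8 without it. Of the injection genes 6 had a mean under 10 and were not tested, and the part of depth in this was not tested.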
